A study of Homo sapiens with 42 samples.

Results

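Convergent genes point at each other: they lie on opposite strands and their 3 prime ends face one another. Low-level genes of this kind were examined in K562 cells, each facing an expressed gene across a short stretch of DNA. A gene was a member when its nuclear level, averaged over the 15 nuclear libraries, was 0.3 to under 10 CPM (a gene's count scaled to the library total), when its span overlapped no other gene, when its 3 prime end lay within 10000 bases of the 3 prime end of an opposite-strand gene of 10 CPM or more, and when no same-strand gene of 10 CPM or more ended within 50000 bases upstream of it. Of 58243 genes, 12099 had a level in that window, 3350 of these overlapped no other gene and 571 of those faced an expressed gene. The last condition removed 228, which left 343 members facing 333 expressed genes; 10 expressed genes were faced by 2 members each, and 30 members had another gene between the facing ends.

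RNA polymerase II normally stops soon after the new transcript is cut at the polyadenylation site. The cut is made by the nuclease CPSF73 inside the cleavage and polyadenylation complex, which recognises a hexamer, most often AATAAA, just before the cut. When cutting or termination is slowed, transcription continues past the gene end, which is called readthrough. A readthrough transcript of one convergent gene runs into its partner from the partner's 3 prime end and is antisense to it. The deposited counts were made with no stated strand option, so sense and antisense reads over a member cannot be told apart here.

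The ends of 6 pairs are shown because their members are named below under JTE-607, KCl or imatinib. All of these members but TJP3 had under 0.3 CPM in nuclear CTRL and entered through treated libraries. Each line gives a 30-base window from the last 50 bases before an annotated 3 prime end, read 5 prime to 3 prime on the gene's own strand of hg38, with the hexamer AATAAA or ATTAAA in capitals where one is present. The first of each pair is the member and the second the expressed gene that faces it.
EDAR (chr2:108894472-108894501, minus strand): ttttataatctcAATAAAcacattaataag
CCDC138 (chr2:108885448-108885477, plus strand): gaaaagttatacAATAAAattgaaaagtaa
ERMN (chr2:157318625-157318654, minus strand): ctgctgtgtctgacttactctcAATAAAag
GALNT5 (chr2:157314182-157314211, plus strand): tggattagcttaggtcattgcctttacttt
RXFP4 (chr1:155942920-155942949, plus strand): aggctgcagtgccctcagggaaaagtctga
ARHGEF2 (chr1:155946856-155946885, minus strand): aattcagggaaaATTAAAaacctggaactc
PADI6 (chr1:17401662-17401691, plus strand): tactaaatagccAATAAAgggctggtgggt
RCC2 (chr1:17406768-17406797, minus strand): gtaaacattttaAATAAAcaacaacattgt
IL4 (chr5:132682644-132682673, plus strand): aactcatcataaAATAAAgtatatatagaa
KIF3A (chr5:132692633-132692662, minus strand): tggttaaataagAATAAAaatcttttacct
TJP3 (chr19:3750778-3750807, plus strand): cgcctggtctttAATAAAcagagtattttc
APBA3 (chr19:3750819-3750848, minus strand): ggaccttgtccttcctggaagccactagaa

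One or both hexamers, searched on the gene's own strand only, were present in the last 50 bases of 202 of 343 members (58.9%) and of 155 of the 195 protein-coding members (79.5%). The share was 73.3% of the facing genes, 74.5% of all genes of 10 CPM or more and 39.1% of all 58243 genes. GALNT5, RXFP4 and APBA3 hold neither in this window, which says only that these letters are not there.

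K562 is a chronic myeloid leukaemia line driven by the BCR-ABL1 kinase. Cells were untreated (CTRL) or received 1 μM imatinib (IM), which inhibits that kinase, 5 μM JTE-607 (JTE), whose target is CPSF73, or 110 mM KCl, a hyperosmotic stress. Nuclear RNA was sequenced from CTRL, IM 1h, IM 18h, JTE 1h and KCl 1h, and poly(A) mRNA of whole cells from CTRL, IM at 1, 6 and 18 h, JTE at 1, 6 and 18 h and KCl at 1 and 3 h, with 3 biological replicates per group. Totals ran from 16175394 to 25103205 counts in the nuclear libraries and from 16439848 to 62953314 in the mRNA libraries. The K562 markers examined lay between 58.6 and 4978 CPM in nuclear RNA, whereas the T cell marker CD3E reached at most 0.259 and the liver marker ALB at most 0.159 CPM; EPCAM, an epithelial marker, lay between 53.8 and 80.2 CPM.

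Of the members, 195 (56.9%) were protein-coding, against 46.1% of the 3350 low-level genes that overlapped no other gene. A further 63 were pseudogenes, 61 lncRNAs and 12 small RNAs, and 88 members had a single exon. Among the facing genes 313 of 333 were protein-coding. The distance between the facing 3 prime ends ran from 6 to 9952 bases with a median of 3354. The mean level that chose the members had a median of 1.01 CPM, and the facing genes had a median of 59.4 CPM, from 10.4 to 2176. At the edges of the rule, IL4 facing KIF3A was the most distant member at 9952 bases, whereas CD180 facing MAST4 fell outside at 10018. ENSG00000267108 entered at 0.3005 CPM and RPL35AP26 was left out at 0.2983, and among the facing genes PPP2R5B entered at 10.4 CPM whereas VSIG10L was left out at 9.91.

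The choice used treated libraries as well as CTRL. In CTRL alone the median member had 0.535 CPM, and 111 members lay under 0.3 CPM there, so these entered only through treated libraries and had to be higher in at least one of them. For this reason the nuclear counts of each comparison are led by the same rule applied to the 3 CTRL libraries alone, which gave 239 members, 228 of them shared with the main set. Levels beside the facing gene and splits by feature are given for the 232 members with at least 0.3 CPM in CTRL (229 tested). These 232 members, the decision to lead with the CTRL choice, and its use for other classes of genes and for distances, came after the values were seen, and its CTRL libraries also enter the comparisons with CTRL. The mRNA libraries were not used by either rule. After the filter on low counts, 336 of the 343 members were tested in nuclear RNA and 193 in mRNA.

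Beside the gene it faced, a member was a weak signal. Per kilobase of exon, the median of the 232 members with at least 0.3 CPM in CTRL stood at 4.67 ± 0.12% of the facing gene in nuclear CTRL libraries (SD, n = 3), with 4.60 and 4.80% as the lowest and highest library. It was 4.30 ± 0.55% with IM 1h and 5.40 ± 0.0087% with IM 18h. With JTE 1h it was 8.49 ± 0.45%, from 7.97 to 8.82%, and with KCl 1h 9.67 ± 1.87%, from 8.10 to 11.7%. No JTE, KCl or IM 18h library overlapped a CTRL library. Summed over these members, the level was 464 ± 19.1 CPM in CTRL, 653 ± 26.3 in JTE, 741 ± 113 in KCl and 505 ± 14.9 in IM 18h. The summed level of all 333 facing genes was 41045, 41009, 41483 and 37295 CPM in the same groups. In poly(A) mRNA the median stood at 1.74 ± 0.16% in CTRL, from 1.57 to 1.90%. It was 1.91, 2.49 and 2.80% with IM at 1, 6 and 18 h, 2.46, 3.44 and 2.78% with JTE at 1, 6 and 18 h, and 2.46 and 2.19% with KCl at 1 and 3 h. The mRNA libraries of IM 6h and IM 18h thus lay above those of CTRL as well, the lowest at 2.29 and 2.46%. The facing genes were lower there, with summed levels of 38785 CPM in CTRL, 36356 at IM 6h and 34046 at IM 18h. The summed member level was 292 CPM in CTRL (265 to 331), 321 at IM 6h (305 to 337) and 311 at IM 18h (302 to 320), which overlap. The part of the facing genes in this ratio was not tested.

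**Figure D1:**
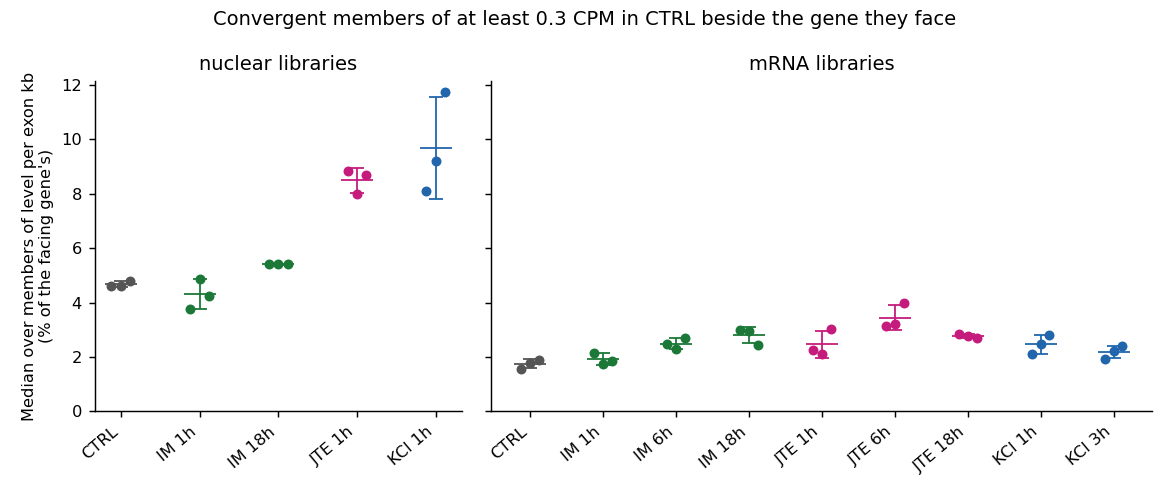
The y axis gives the median over the 232 members of at least 0.3 CPM in CTRL of the level per exon kilobase as a percentage of the facing gene's, in each nuclear library (left) and mRNA library (right). Points are libraries, and the bars are the mean and SD of 3. The nuclear JTE libraries (7.97 to 8.82%) and KCl libraries (8.10 to 11.7%) lie above the CTRL libraries (4.60 to 4.80%). Those of IM 18h (5.40 to 5.41%) lie above CTRL too.

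With JTE for 1 h, which asks what follows when the 3 prime end nuclease is inhibited, many members rose in nuclear RNA and almost none fell. Members chosen on CTRL were called higher in 85 of 235 tested (36.2%) and lower in 2, with a median log2 fold change of 0.57. A gene was called where edgeR's quasi-likelihood p, adjusted by Benjamini-Hochberg over all 21929 genes tested, was under 0.05 and its change exceeded 0.6 on the log2 scale in either direction; of these genes 7% were called higher and 1.51% lower. In the full set, 147 of 336 members were higher (43.8%) and 2 lower, with a median of 1.04 against −0.01 over all genes tested. Treated and CTRL libraries did not overlap in 148 of the 149 called members. The call itself favours such separation, and at IM 18h it was 80 of 84, so this count describes the calls rather than the members. None of the 333 facing genes was called in either direction by edgeR or DESeq2, and their median was −0.04. At an unadjusted p under 0.05 edgeR had 46 of them, and 131 with the replicate block, which also called none.

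The members named next as higher, other than CTXND1, had under 0.3 CPM in CTRL and entered through treated libraries, so their values are a description and carry no test. ERMN, which encodes the oligodendrocyte cytoskeletal protein ermin and faces the glycosyltransferase gene GALNT5 at 4414 bases (ERMN, ENSG00000136541, chr2:157318625-157327713), had 0.354, 0.269 and 0.151 CPM in the CTRL libraries. The JTE libraries held 5.82, 3.6 and 4.30 CPM, a log2 fold change of 4.09 (SE 0.35). Every JTE library of ERMN was above every CTRL library, and GALNT5 itself moved by 0.14 (edgeR adjusted p 0.634). The GALNT5 libraries ran at 304, 265 and 228 CPM in CTRL and at 338, 289 and 254 CPM with JTE. These groups overlap, but each JTE library was above the CTRL library of the same replicate number. That test did not use the pairing of replicates.

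RXFP4 encodes a receptor of the relaxin peptide family and faces ARHGEF2, which encodes a guanine nucleotide exchange factor, at 3902 bases. It had 0, 0.0449 and 0.0505 CPM in CTRL and 1.52, 1.63 and 1.27 CPM with JTE, and the ratio of its counts was 47.3 (95% interval 12.8 to 396, counting error only). EDAR, the ectodysplasin receptor gene, faces CCDC138 at 8994 bases. It stood at 0.133, 0.0898 and 0.151 CPM in CTRL and 2.07, 1.49 and 2.15 CPM with JTE (log2 fold change 3.88, SE 0.45). In both genes the groups were clearly apart, yet the treated levels remained low beside facing genes at 151 to 175 CPM for ARHGEF2 and 28.5 to 36.7 CPM for CCDC138.

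CTXND1, which faces the tyrosine catabolism gene FAH at 8538 bases, went from 0.443, 0.404 and 0.707 CPM to 5.10, 4.41 and 8.25 CPM (edgeR log2 fold change 3.52, SE 0.34, adjusted p 1.49e-06). The olfactory receptor gene OR52I2, which faces TRIM68 at 5332 bases with another gene between them, was higher by 4.18 on the log2 scale (SE 0.51), or by 5.07 without CTRL replicate 1. PLAC9, opposite the annexin gene ANXA11, was higher by 3.86, and the pseudogene WDR82P2, opposite the replication kinase gene CDC7, by 3.70. Members with differences of this size therefore included receptor and olfactory genes as well as a pseudogene.

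The lower members with JTE were LINC00235 and ENSG00000278876. LINC00235, a lncRNA gene opposite RAB11FIP3 at 2144 bases, had 5.71, 6.47 and 7.32 CPM in CTRL and 3.84, 3.84 and 4.86 CPM with JTE (edgeR log2 fold change −0.63, SE 0.16, adjusted p 0.0156). Its groups did not overlap, and the call was lost without CTRL replicate 2 or 3 or JTE replicate 1 or 2, with values from −0.55 to −0.61.

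KCl for 1 h addresses the response to an osmotic stress. Members chosen on CTRL were called higher in 99 of 235 tested (42.1%) and lower in 16, with a median log2 fold change of 0.60. Over all genes tested 15.3% were called higher and 8.5% lower. In the full set 198 of 336 members were higher (58.9%) and 16 lower (4.76%), with a median of 1.31. Treated and CTRL libraries did not overlap in 207 of the 214 called members, a separation that the call itself favours. Of the 333 facing genes, 1 was called higher and 8 lower.

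Several members with no count in any CTRL library were among the largest rises. FXYD4, METTL21C, PADI6, IL4, TTC24 and ATP4B, at or near 0 CPM in CTRL, could reach the floor of the rule only through treated libraries, those of KCl among them, so their nuclear levels are described without a test. FXYD4, a regulator of the sodium pump in kidney that faces the splicing regulator gene HNRNPF at 9282 bases, was at 0 CPM in each CTRL library and at 2.49, 4.46 and 6.58 CPM with KCl. This is at least 98.1-fold higher against a floor of 3 counts over the CTRL group. With JTE the same gene had 0.0422, 0.0479 and 0.0398 CPM.

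METTL21C, a muscle lysine methyltransferase gene that faces TPP2 at 5786 bases, was also at 0 CPM in each CTRL library. KCl libraries held 5.40, 3.87 and 4.09 CPM, at least 95.3-fold higher. JTE libraries held 0.717, 0.623 and 0.319 CPM, at least 11.8-fold higher. TPP2 itself was at 176, 135 and 127 CPM in CTRL and at 184, 145 and 121 CPM with KCl, groups that overlap.

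PADI6, an oocyte gene of the peptidylarginine deiminase family opposite the chromatin regulator gene RCC2 at 5061 bases, had 0, 0 and 0.0505 CPM in CTRL and 3.58, 5.20 and 7.21 CPM with KCl. Its count ratio was 347 (95% interval 61.8 to 1.37e+04, counting error only). With JTE it stood at 0.0422, 0.0479 and 0.0797 CPM. IL4, the T helper cell cytokine gene and the most distant member, was at 0 CPM in each CTRL library, at 1.35, 1.47 and 1.75 CPM with KCl (at least 32.9-fold higher) and at 0.127, 0.0959 and 0.0398 CPM with JTE.

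TTC24 opposite GPATCH4 and the gastric proton pump subunit gene ATP4B opposite TFDP1 were likewise at 0 in CTRL. They were at least 42.1-fold and 38.6-fold higher with KCl. The members of the JTE account were higher as well: ERMN reached 15.2, 10.8 and 10.5 CPM (log2 fold change 5.52, SE 0.33), EDAR 5.92, 5.20 and 10.1 CPM (5.78, SE 0.39) and CTXND1 12.9, 13.8 and 22.2 CPM (4.99, SE 0.32).

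Among the lower members, LINC00235 fell to 1.61, 1.75 and 1.56 CPM with KCl (edgeR log2 fold change −1.97, SE 0.18, adjusted p 7.98e-08), below every CTRL and JTE library. LINC00106 opposite ASMTL changed by −1.60 (SE 0.33, adjusted p 0.000803 by edgeR). The histone pseudogene H2BC19P changed by −1.39 (SE 0.32, adjusted p 0.00191 by edgeR) and its facing gene H2BC20P by −1.09 (edgeR adjusted p 8.19e-08); reads shared by near-identical histone copies were not counted, so these values are uncertain. Of the lncRNA members with at least 0.3 CPM in CTRL, 9 of 41 tested were higher and 9 lower with KCl.

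**Figure D2:**
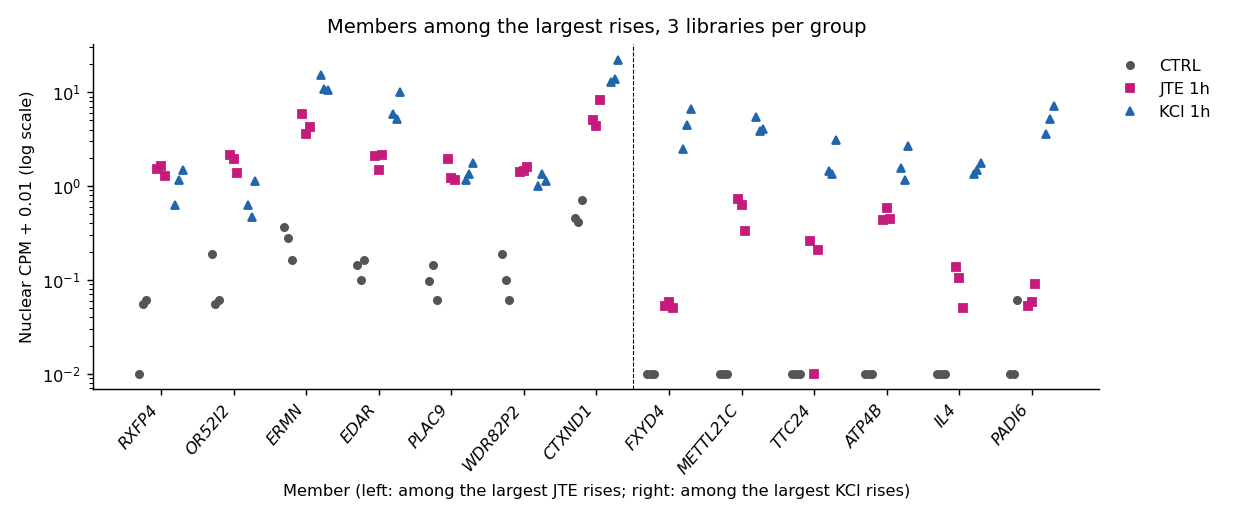
The y axis gives nuclear CPM plus a small offset on a log scale, for members among the largest JTE rises (left of the dashed line) and among the largest KCl rises (right). Circles are the 3 CTRL, squares the 3 JTE 1h and triangles the 3 KCl 1h libraries. ERMN, EDAR and CTXND1 are high in both treatments, whereas FXYD4 (2.49 to 6.58 CPM with KCl) and PADI6 (3.58 to 7.21 CPM) stay near CTRL with JTE.

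JTE and KCl were compared directly because both comparisons above share the CTRL libraries. Among members chosen on CTRL, 50 were higher with KCl and 33 higher with JTE; over all genes tested 10.7% were higher and 5.24% lower with KCl. In the full set the counts were 111 of 336 (33.0%) and 37 (11%), with a median of 0.24. Among the members that entered through treated libraries, and again as a description, IL4 was higher with KCl by 4.07 on the log2 scale (SE 0.51), METTL21C by 3.03, EDAR by 1.90 and ERMN by 1.43 (SE 0.23). OR52I2 went the other way, with 2.11, 1.92 and 1.35 CPM in JTE and 0.623, 0.460 and 1.12 CPM in KCl (−1.26, SE 0.36).

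CHRNG, the fetal muscle acetylcholine receptor subunit gene opposite TIGD1, is named after its values were seen, since it was higher with JTE and lower with KCl. It had 2.30, 3.32 and 4.09 CPM in CTRL, 6.58, 6.38 and 6.45 CPM with JTE (edgeR log2 fold change 1.00, SE 0.18, adjusted p 0.000901) and 1.04, 1.2 and 1.41 CPM with KCl (−1.39, SE 0.22, adjusted p 3.92e-05 by edgeR). The 3 groups of CHRNG do not overlap, and the direct difference was −2.39 (SE 0.21, adjusted p 7.05e-08 by edgeR). TIGD1 changed by −0.61 with KCl (edgeR adjusted p 0.00122).

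The distance between the facing ends was considered next. For genes chosen on CTRL, the share called higher with JTE was 37.1% at distances under 1000 bases, 35.7% at 1000 to 2500, 37.5% at 2500 to 5000 and 34.4% at 5000 to 10000. Convergent genes beyond the limit, a class added after the values were seen, gave 12.9% at 10000 to 20000 bases (9 of 70), 7.41% at 20000 to 30000 (4 of 54) and 1.22% at 30000 to 50000 (1 of 82). With KCl the shares in the same 7 bins were 37.1, 41.1, 46.4, 44.3, 42.9, 37.0 and 15.9%. The share was thus lower from 10000 bases on with JTE and from 30000 bases on with KCl.

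In the direct comparison of KCl with JTE, the closest genes chosen on CTRL were higher in 11 and lower in 14 of 62, and those at 1000 to 2500 bases in 7 and 12 of 56. At 2500 to 5000 bases 12 were higher and 4 lower of 56, and at 5000 to 10000 bases 20 and 3 of 61. At 10000 to 20000 bases the counts were 20 and 4 of 70, and at 20000 to 30000 bases 14 and 1 of 54. At 30000 to 50000 bases 11 were higher and 4 lower of 82 (13.4 and 4.88%), near the 10.7 and 5.24% of all genes tested. Genes called in this contrast were therefore on both sides under 2500 bases and mostly on the KCl side from 2500 to 30000 bases. The full set runs higher, most of all from 2500 to 10000 bases, where the median CTRL level was lower (0.425 and 0.325 CPM, against 0.885 CPM under 1000 bases) and more members had entered through treated libraries; the part of level in the pattern was not tested.

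**Figure D3:**
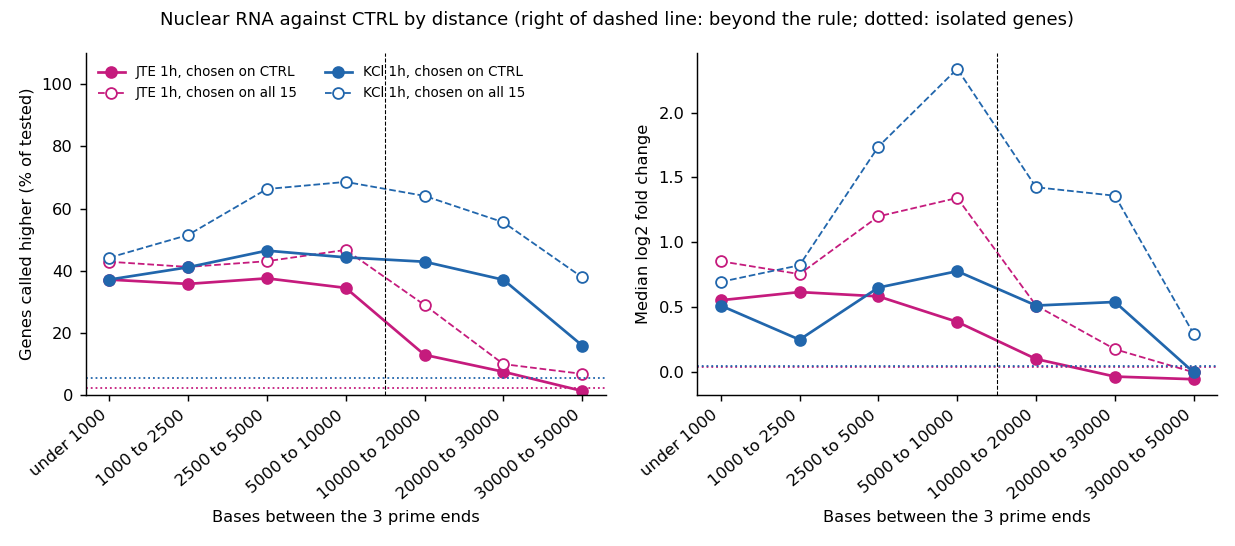
The x axis gives the bases between the facing 3 prime ends in 7 bins, the left y axis the percentage of tested genes called higher against CTRL in nuclear RNA, and the right y axis the median log2 fold change. Filled points with solid lines are genes chosen on the CTRL libraries, open points with dashed lines those chosen on all 15, and dotted lines the isolated genes chosen on CTRL. JTE falls from 34.4% at 5000 to 10000 bases to 12.9% in the next bin, whereas KCl goes from 44.3 to 42.9%.

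Other arrangements of low-level genes were set beside the members, all chosen on CTRL in the same level window. Isolated genes, with no gene of 10 CPM or more within 50000 bases, were higher in 18 of 828 with JTE (2.17%) and 46 with KCl (5.56%). Tandem genes, which start within 10000 bases downstream of an expressed gene on the same strand, were higher in 156 of 417 with JTE (37.4%) and 159 with KCl (38.1%), shares close to the 36.2 and 42.1% of the members. Convergent genes at 10000 to 50000 bases were higher in 14 of 206 with JTE (6.80%) and in 63 with KCl (30.6%). In the classes chosen on all 15 libraries, 109 of the 571 tandem genes also faced an expressed gene. Divergent genes of that choice, whose 5 prime end rather than 3 prime end neighbours an expressed gene, were added after the values were seen and were higher in 6 and lower in 5 of 264 with JTE, with a median of −0.09. With KCl 26 of the divergent genes were higher and 47 lower (17.8%, against 8.5% of all genes tested), with a median of −0.19.

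**Figure D4:**
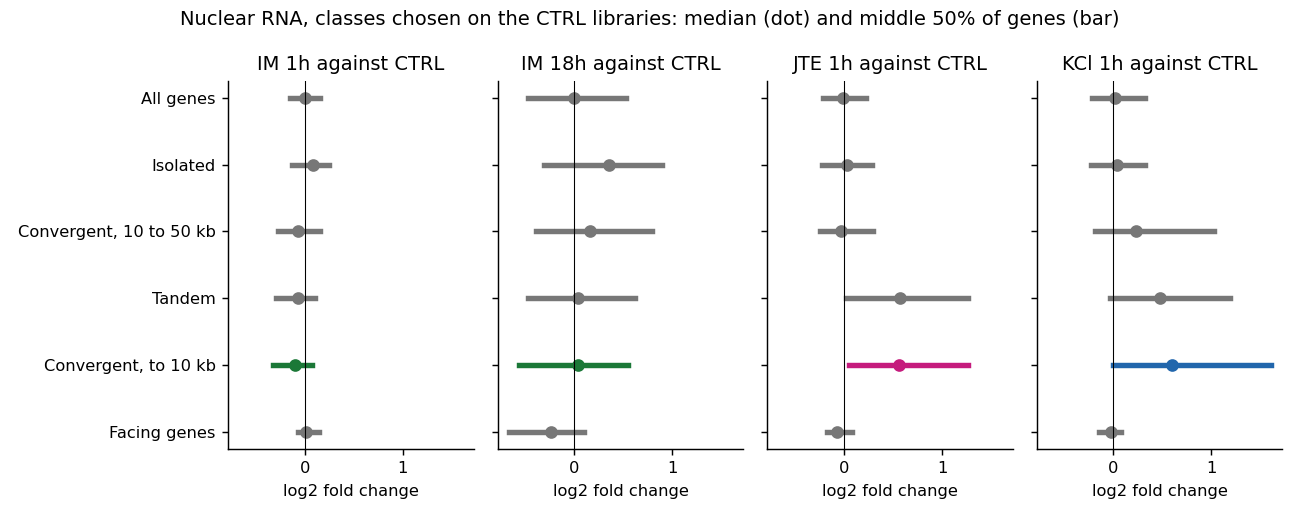
The x axis gives the log2 fold change in nuclear RNA for each treatment against CTRL, with the median as a dot and the middle 50% of genes as a bar, for classes chosen on the CTRL libraries. With JTE and KCl the convergent genes to 10 kb (medians 0.57 and 0.60) and the tandem genes lie to the right of zero, whereas isolated genes and the facing genes centre near it. With IM 1h all classes centre near zero.

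Features of the pair were compared among the 229 tested members with at least 0.3 CPM in CTRL. By the level of the facing gene, the lowest, middle and highest groups were higher with JTE in 24 of 80 (30%), 29 of 79 (36.7%) and 29 of 70 (41.4%), and with KCl in 27, 40 and 30. Single-exon members were higher in 14 of 56 with JTE and members with several exons in 68 of 173 (39.3%); with KCl the counts were 14 and 83. Protein-coding members were higher in 57 of 137 with JTE (41.6%), pseudogenes in 12 of 34 and lncRNA members in 7 of 41. Members whose facing end held AATAAA or ATTAAA were higher with JTE in 54 of 157 (34.4%) and those without in 28 of 72 (38.9%); with KCl the counts were 72 (45.9%) and 25 (34.7%). These splits are descriptions without a test, and level, distance and biotype differ between them.

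The smallest distances did not go with uniform changes. TJP3 lies 6 bases from APBA3 and had a log2 fold change of 0.85 with JTE (edgeR adjusted p 0.191). DDX11L9, 15 bases from WASH3P, under 0.3 CPM in CTRL and one of a family of near-identical copies, was higher by 2.65, and the inflammasome gene NLRC4, 74 bases from the zinc transporter gene SLC30A6, rose by 1.36 with JTE and 1.61 with KCl. MTMR9LP at 54 bases from EIF3I (0.93, edgeR adjusted p 0.211) was not called with JTE. The members facing the most abundant genes also differed. TACR2, a neurokinin receptor gene opposite the hexokinase gene HK1, rose by 1.85 with JTE (SE 0.36, adjusted p 0.003 by edgeR) and 2.47 with KCl (SE 0.35, adjusted p 4.87e-05 by edgeR). RPL31P47 opposite HSPA8, also under 0.3 CPM in CTRL, had a KCl count ratio of 111 (95% interval 19.6 to 4.44e+03, counting error only). SNORD3C opposite SNORD3A was called with neither treatment.

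Imatinib for 1 h gave no call by edgeR among the members in nuclear RNA, neither among the 235 chosen on CTRL nor in the full set. In the full set the median log2 fold change was −0.09, and 18 of 336 members had an unadjusted p under 0.05 (17 of 229 with at least 0.3 CPM in CTRL); DESeq2, the fit with the replicate block and the fit without a filter each called 1. Over all genes tested 0.00456% were called higher and 0.041% lower by edgeR. The named JTE and KCl members were closer to CTRL at this time: ERMN had a log2 fold change of 0.77 (SE 0.50) and EDAR −0.13 (SE 0.77).

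At 18 h of imatinib members moved in both directions. Those chosen on CTRL were higher in 38 of 235 (16.2%) and lower in 35 (14.9%), with a median of 0.04, near the shares over all genes tested, 17.2% higher and 15.4% lower. In the full set 47 of 336 were higher and 37 lower. Isolated genes of the full choice were higher in 294 of 927 (31.7%), and the facing genes were higher in 26 and lower in 82 of 333.

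The largest changes differed in absolute level. GPR3, a constitutively active receptor gene opposite the actin regulator gene WASF2, went from 14.6, 16.4 and 12.8 CPM in CTRL to 0.466, 1.54 and 0.989 CPM (edgeR log2 fold change −3.96, SE 0.24), while WASF2 moved by 0.38. GPR3 stood above the 10 CPM ceiling in CTRL and entered through lower treated libraries, so its value is a description and carries no test. C3AR1, the complement C3a receptor gene opposite FOXJ2, went from 4.96, 3.68 and 2.88 CPM to 0.424, 0.548 and 0.495 CPM (−3.04, SE 0.33, adjusted p 3.6e-07 by edgeR). In nuclear RNA neither gene was called with JTE or KCl at 1 h, and their facing genes were not called at 18 h of imatinib. The mast cell receptor gene MILR1 changed by −2.85 (SE 0.39, adjusted p 6.07e-06 by edgeR) and its facing gene POLG2 by −0.79, and MTMR9LP by −2.07 (SE 0.57, adjusted p 0.00742 by edgeR) with EIF3I at −0.85.

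In the other direction, TJP3, a tight junction protein gene, went from 0.443, 0.718 and 0.808 CPM to 3.6, 5.58 and 6.18 CPM (edgeR log2 fold change 2.88, SE 0.34, adjusted p 8.53e-07), with APBA3 at −0.17. SFRP5, a secreted Wnt antagonist gene opposite ZFYVE27, went from 0.177, 0.269 and 0.303 CPM to 2.97, 2.29 and 2.23 CPM (3.25, SE 0.42), without a test since it had under 0.3 CPM in CTRL; it was also higher by 2.59 with JTE. LLCFC1 lies 246 bases from KEL, the Kell blood group gene of erythroid cells. LLCFC1 went from 1.46, 1.35 and 1.87 CPM to 11.7, 8.62 and 10.8 CPM (2.67, SE 0.24, adjusted p 3.36e-08 by edgeR), while KEL went from 84.8, 101 and 122 CPM to 738, 521 and 606 CPM (2.54, edgeR adjusted p 5.4e-09). The pair LLCFC1 and KEL thus rose by like amounts, and PRADC1P1 (2.69, SE 0.40; under 0.3 CPM in CTRL) was higher along with its facing gene EPM2AIP1 (1.23).

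Members with at least 0.3 CPM in CTRL were sorted by their facing gene. The 18 opposite a gene called higher at 18 h were higher in 8 and lower in none, with a median of 0.76. The 61 opposite a gene called lower were higher in 6 and lower in 17, with a median of −0.48, and the 150 opposite a gene not called were higher in 23 and lower in 19, with a median of 0.08. Reads past the end of the facing gene and the member's own transcription cannot be told apart in these counts. Between IM 18h and IM 1h, 46 of 235 members chosen on CTRL were higher at 18 h (19.6%) and 25 lower (10.6%), against 16.8% and 14.5% of all genes tested. In the full set 50 of 336 were higher (14.9%) and 26 lower, with a median of 0.14, so that the share of higher members lay above or below that of all genes with the choice of members.

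**Figure D5:**
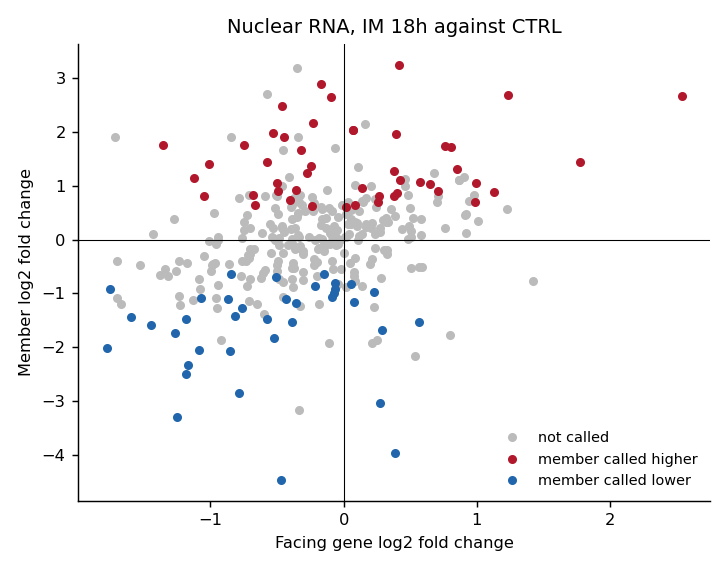
Each point is one of the 336 tested members, with the log2 fold change of its facing gene on the x axis and its own on the y axis, in nuclear RNA of IM 18h against CTRL. Red points are members called higher (47), blue points members called lower (37) and grey points members not called. LLCFC1 is the point farthest to the right, with its facing gene KEL at 2.54, and members far from zero occur on both sides of a facing gene near zero.

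The mRNA libraries played no part in choosing members, and they hold poly(A) RNA of whole cells. Counts and medians in mRNA are of the full set unless stated, and that set includes members that entered through treated nuclear libraries. With JTE, 3 of 193 tested members were higher and none lower at 1 h (0.387% of all genes tested were higher and 0.464% lower). At 6 h 52 were higher (26.9%) and 9 lower, against 6.73% and 6.47%, and at 18 h 16 were higher (8.29%) and 1 lower, against 3.29% and 2.09%. The medians were 0.20, 0.57 and 0.35. Restricted to members chosen on nuclear CTRL libraries, 47 of 171 were higher at 6 h (27.5%). The 150 members not tested in mRNA had too few counts, and those that passed could do so through the treated libraries.

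C11orf42, 203 bases from FHIP1B, had 0.218, 0.263 and 0.112 CPM in CTRL mRNA and 0.780, 0.738 and 1.56 CPM with JTE at 1 h (edgeR log2 fold change 2.37, SE 0.53, adjusted p 0.0259), and it was higher by 3.53 at 6 h and by 2.15 at 18 h. CTXND1 rose at 1 h in mRNA too, by 2.7 (SE 0.55, adjusted p 0.0125 by edgeR). Both 1 h calls depend on single libraries: C11orf42 lost its call without any 1 CTRL replicate or JTE replicate 3, and CTXND1 without CTRL replicate 2 or 3 or JTE replicate 3, with values down to 1.94 and 2.12. TACR2 went from 0.818, 0.315 and 1.79 CPM to 14.7, 12.7 and 47.9 CPM at 6 h (4.76, SE 0.64, adjusted p 1.09e-05 by edgeR). The third replicate was the highest of TACR2 by a wide margin, and the change was 3.9 without it and 5.49 without CTRL replicate 3. The same replicate decided RXFP4, which had 0.236, 0.161 and 2.75 CPM at 6 h. Its count ratio was 32.2 (95% interval 8.57 to 271), an interval of counting error only that leaves out the spread between libraries. Without that replicate the log2 fold change of RXFP4 was 2.35 (edgeR adjusted p 0.264).

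At 18 h of JTE the heart fatty acid binding protein gene FABP3, opposite ZCCHC17, stood at 9.05, 6.39 and 10.5 CPM against 1.53, 1.47 and 1.40 CPM in CTRL (edgeR log2 fold change 2.48, SE 0.22, adjusted p 1.36e-07), and it was at 7.72, 7.61 and 7.93 CPM at 6 h. TNN, an extracellular matrix gene opposite KIAA0040, rose by 2.72. The lower members with JTE included the zinc finger genes ZNF784 (−1.68 at 6 h) and ZNF501 (−0.86 at 18 h), and C3AR1 (−1.07 at 6 h). C3AR1 was not called without JTE replicate 1 (−0.86), nor ZNF501 without CTRL replicate 2 (−0.67) or JTE replicate 3 (−0.76).

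With KCl, 26 of 193 members were higher in mRNA at 1 h (13.5%) and 5 lower, against 2.51% and 2.94% of all genes tested. At 3 h 29 were higher (15%) and 13 lower, against 4.55% and 7.33%. Members chosen on nuclear CTRL libraries were higher in 14 of 171 at both times (8.19%) and lower in 5 and 12. METTL21C was at 0 CPM in each CTRL mRNA library, at 0.830, 1.73 and 1.25 CPM at 1 h (at least 26.3-fold higher) and at 1.25, 1.2 and 0.889 CPM at 3 h (at least 20.6-fold). EDAR was at least 21.1-fold higher at 1 h. The lncRNA gene CAPN10-DT changed by −1.80 at 1 h and −1.56 at 3 h, and LINC00235 by −1.62 at 3 h, the same direction as in nuclear RNA.

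Imatinib gave no member call in mRNA at 1 h by edgeR or DESeq2, 7 members having an unadjusted p under 0.05 by edgeR (0% and 0.0166% of all genes tested were higher and lower). At 6 h 13 were higher and 2 lower, against 5.82% and 4.12%, and at 18 h 37 were higher and 20 lower, against 17.2% and 13.2%. The lower calls at 6 h were GPR3 (−2.7, or −3.79 without IM replicate 1) and C3AR1 (−1.94), which reached −4.21 and −3.50 at 18 h. TJP3 rose by 2.47 at 6 h (SE 0.61, adjusted p 0.00679 by edgeR) and ACP6, a lysophosphatidic acid phosphatase gene opposite BCL9, by 2.18, while SFRP5 and DYNC1I1 rose by 3.42 and 3.00 at 18 h (DYNC1I1 by 3.77 without CTRL replicate 3). Of the 191 members tested in both fractions, 39 were higher in nuclear RNA at IM 18h, 37 in mRNA and 28 in both. For JTE 1h these counts were 73, 3 and 3, and for KCl 1h 90, 26 and 26. The same counts over all genes are not given here, so whether this sharing is particular to the members is not shown. The 191 also include members that entered through treated nuclear libraries.

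Genes of the cleavage and termination machinery, a list of 21 tested genes, changed little at 1 h. In nuclear RNA PCF11, a termination factor gene, rose by 0.88 with JTE (SE 0.12, adjusted p 3.94e-05 by edgeR), no other gene of the list was called with JTE, and none was called with KCl by edgeR or DESeq2, with 2 at an unadjusted p under 0.05. At IM 18h CSTF2 and CLP1 were lower by −0.82 and −1.07. In mRNA PCF11 rose by 0.90 with JTE at 1 h. At 6 h PCF11, CSTF3 and RBBP6 rose by 1.42, 1.36 and 1.27 and CPSF4 changed by −0.75. At 3 h of KCl RBBP6 rose by 1.01 and CSTF2T changed by −0.73.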

How the data were processed

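Nuclear RNA (15 libraries) and poly(A) mRNA (27 libraries) of K562 cells were analysed. The deposited files hold raw counts, as whole read pairs for each gene. Per the methods of the study, the authors trimmed and deduplicated reads, aligned them to hg38 with STAR, kept unique alignments with short introns and counted pairs over exons with featureCounts, with no strand option stated. The annotation release was not given in the sources used here. Reads shared by paralogs or pseudogene copies were lost, so their counts are uncertain.

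Members were chosen by mean CPM (counts over the column total), position and strand. Members and lists were chosen with earlier results of these data known. The quasi-likelihood test of edgeR 4.0.16 (R 4.3.3) was run after TMM and filterByExpr. Each fraction was fitted once over its libraries with 1 term per group, and p-values were adjusted over all genes. Fitted medians include members with no count in CTRL; with these at their lower bound the nuclear JTE median was 1.01. The named members were the largest called rises and falls without overlap between groups and with at least 1 CPM in the higher group (8 and 3 for nuclear JTE and KCl, 4 and 4 for IM 18h, 2 and 2 elsewhere), the 5 closest pairs and the 5 facing the most abundant genes; some of these are not reported here. Between replicates, counts differed beyond sampling noise throughout (chi-square per gene 2.37 to 62.5). The test was tried on simulated counts of the CTRL and JTE 1h groups only. For nuclear JTE 1h (19028 genes) 100% of 4-fold and 75% of 2-fold changes were recovered, with 2 false calls. For mRNA JTE 1h (15259 genes) 90.8% and 59.2% were, with 14 false calls. The changed genes were drawn from all genes that passed the filter, so recovery among the low-level members was not measured.

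Titled replicate numbers pair the nuclear libraries: deviations from group means correlated between same-numbered libraries in every pair with CTRL and of KCl with JTE (0.234 to 0.891), but not throughout IM 18h with IM 1h (from 0.0099) or mRNA. The results were recomputed with DESeq2 1.42.0, with other normalizations, with no filter, no fold threshold, fits of 2 groups, the replicate block, other limits of the rule and leaving out each library. Members with at least 0.3 CPM in CTRL, other classes and distances chosen on CTRL, divergent genes and convergent genes beyond 10000 bases were added after the data were seen. Sequences were read from the hg38 reference; 310 members and 286 facing genes have ends within 100 bases of GENCODE 44.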

Additional observations from a re-analysis of the deposited data

Results flagged for a closer look

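The imatinib time points were compared directly in nuclear RNA: 76 of 336 members (22.6%) were called between IM 18h and IM 1h, 50 higher and 26 lower at 18 h, by edgeR's quasi-likelihood test. Over all genes tested 31.3% were called. From 1 to 18 h GPR3 changed by −3.26 and C3AR1 by −3.28 on the log2 scale, LLCFC1 by 2.85 and TJP3 by 2.5.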

How the results depend on the processing

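Of the counts of called members under the alternatives, 186 stayed within 1.5 times the value given and 38 moved further, and of the values of named members 500 kept their call, 18 lost it and none turned. In nuclear RNA the total called went from 149 to 87 (chosen on CTRL) and 84 (at least 0.3 CPM in CTRL) for JTE 1h, from 214 to 115 and 113, and to 140 within 5000 bases, for KCl 1h, and from 148 to 83, 83 and 95 for KCl against JTE. In mRNA the distance limit of 5000 bases gave 9 for IM 6h (from 15), 18 for KCl 1h (from 31) and 23 for KCl 3h (from 42); members chosen on CTRL gave 19 and 26 for KCl 1h and 3h, and those with at least 0.3 CPM in CTRL 18 for KCl 1h. Smaller sets hold fewer genes to call.

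With no filter the mRNA totals were 7 for JTE 1h (from 3), 51 for KCl 1h and 67 for KCl 3h. Fits of 2 groups gave 0, 12 and 40 for mRNA JTE 1h, KCl 1h and JTE 6h (from 61). For nuclear IM 1h the count of 0 became 1 with DESeq2, without a filter and with the replicate block. The replicate block called 171 higher and 4 lower members for nuclear JTE 1h (2 lower without it), 207 and 19 for KCl 1h, 53 and 44 for IM 18h, 120 and 47 for KCl against JTE and 57 and 30 for IM 18h against IM 1h, and beside IM 1h it moved no nuclear total by over 1.5 times. It left the facing genes without a call for JTE 1h. In mRNA, where numbers did not pair the libraries, the replicate block gave totals of 25 for IM 6h, 6 for JTE 1h and 29 for JTE 18h (from 17). The causes were not tested.

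Leaving out each library in turn gave totals of 62 to 79 for nuclear IM 18h, 119 to 133 for JTE 1h, 194 to 218 for KCl 1h, 133 to 140 for KCl against JTE and 63 to 81 for IM 18h against IM 1h. In mRNA the ranges were 8 to 15 for IM 6h, 40 to 51 for IM 18h, 0 to 5 for JTE 1h, 44 to 56 for JTE 6h, 9 to 18 for JTE 18h, 21 to 31 for KCl 1h and 37 to 44 for KCl 3h. Members of low count limit the smallest change that these depths can show.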
